A study of Mus musculus with 6 samples.

Results

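The aminoacyl tRNA synthetases are the enzymes that join each amino acid to its tRNA, and 37 of their genes were found by symbol among the 20591 genes of an RNA sequencing table of B cells sorted from mouse colons. They were taken by a naming rule that uses no measured value: a symbol made of an amino acid letter followed by ars, with or without a final 1 or 2, together with Farsa, Farsb, Eprs and Ears2. The 17 genes whose symbol ends in 2 encode the mitochondrial enzymes, and the other 20 are called cytosolic here. The table holds 3 libraries from mice given lenvatinib, an inhibitor of receptor tyrosine kinases chiefly for VEGF and FGF, and 3 from mice given DMSO, its solvent control. The groups are otherwise described alike, as B cells sorted from the colon, and no dose, duration, age, strain or state of inflammation is given in the sources used here. The labels number the libraries as biological replicates and do not tell if each was made from its own animal. The p-values therefore measure the spread of these 6 libraries, and that spread may be technical.

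Charging of tRNA supplies both translation systems of the cell. The cytosolic enzymes serve the ribosomes that read nuclear messages, and several of them sit together in the multisynthetase complex, held by the scaffold proteins Aimp1, Aimp2 and Eef1e1. A separate set, encoded in the nucleus and imported, serves the mitochondrial ribosomes, while the Gars and Kars genes each give enzyme to both compartments. Mitochondria make their glutaminyl tRNA by amidating a misacylated tRNA and need no glutaminyl enzyme of their own. Many cytosolic synthetase genes are targets of ATF4, the transcription factor of the amino acid response, and in lymphocytes synthetase expression is known to go up with activation and growth. B cells that become antibody secreting cells make protein in large amounts, which draws on charged tRNA.

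The library size in the authors' normalisation, inferred from their values, was between 26635279 and 31655500 reads. Whether it counts only reads assigned to genes was not checked. Between 140 and 12431 reads per library lay behind each synthetase. Levels are FPKM, fragments normalised to gene length and library size by the authors, further scaled here per library by factors of 0.9916 to 1.009, and each ± gives the SD over the n = 3 libraries of a group. The sorted cells carried the markers of B cells, and markers of other cells differed between the groups. The summed scaled FPKM of 15 B cell identity genes was 3480 to 3530 in DMSO libraries and 2970 to 3010 in lenvatinib libraries. In the same order it was 51.5 to 55.9 and 150 to 153 for 12 T cell genes, 33.1 to 39.9 and 171 to 174 for 12 natural killer and innate lymphoid genes, and 14.8 to 16 and 68.8 to 75.3 for 14 colon epithelium genes. For 12 macrophage and dendritic cell genes it was 53.1 to 54.7 and 61 to 69.3, and for 8 plasma cell genes 369 to 375 and 345 to 360. By the test described next, 12 of 15 tested B cell identity genes fell and 0 rose. Of the tested genes, 8 of 11 T cell, 9 of 9 natural killer and innate lymphoid, 9 of 9 epithelial and 1 of 9 macrophage and dendritic genes rose, and 0 of these fell. Klrb1c among the natural killer genes and 5 of the 9 epithelial genes, Cdh1, Krt8, Krt19, Zg16 and Guca2a, were below 1 in every DMSO library and so were tested only through their lenvatinib libraries, which limits what those counts show. Of the 7 tested plasma cell genes 1 rose, Jchain, from a mean of 45.9 to 62.9, and 1 fell, Irf4, from 136 to 104. Over all tested genes 10.4 percent rose and 8.21 percent fell. No gene of these lists was at 0 in every library. These levels differed between the same groups as the synthetases below, and their part in the synthetase values was not tested. In sorted bulk RNA, fewer cells of a type and less RNA per cell cannot be told apart.

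Synthetase expression was close to the same in both groups, with a small number of genes higher after lenvatinib and none called lower. A gene was tested if 3 or more libraries reached a scaled FPKM of 1, with limma on log2(scaled FPKM + 1), with p-values adjusted over all 9937 tested genes and a threshold of 0.05. Of the 37 synthetase genes 36 entered the test, and Nars2, the mitochondrial asparaginyl enzyme, did not. Of these 36, 4 rose and 0 fell, which is 11.1 percent higher where 10.4 percent of all tested genes rose and 8.21 percent fell, 18.7 percent in either direction. At an unadjusted p under 0.05, 10 synthetases were higher and 1 was lower, where 17.6 percent of all tested genes were higher and 14.7 percent lower. Limma-voom on recovered reads called 7 synthetases higher and 0 lower, against 12.7 percent and 12.3 percent of all genes. By the adjusted limma test the share of synthetases that rose was near that of all genes and is not a result about the family. Counted by libraries, the 3 lenvatinib values lay above the 3 DMSO values for 11 synthetases and below them for 5, where 18.9 percent of tested genes did not overlap in the higher direction and 18.2 percent in the lower. The median log2 change was 0.07 over the 36 synthetases and 0.01 over all tested genes.

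**Figure D1:**
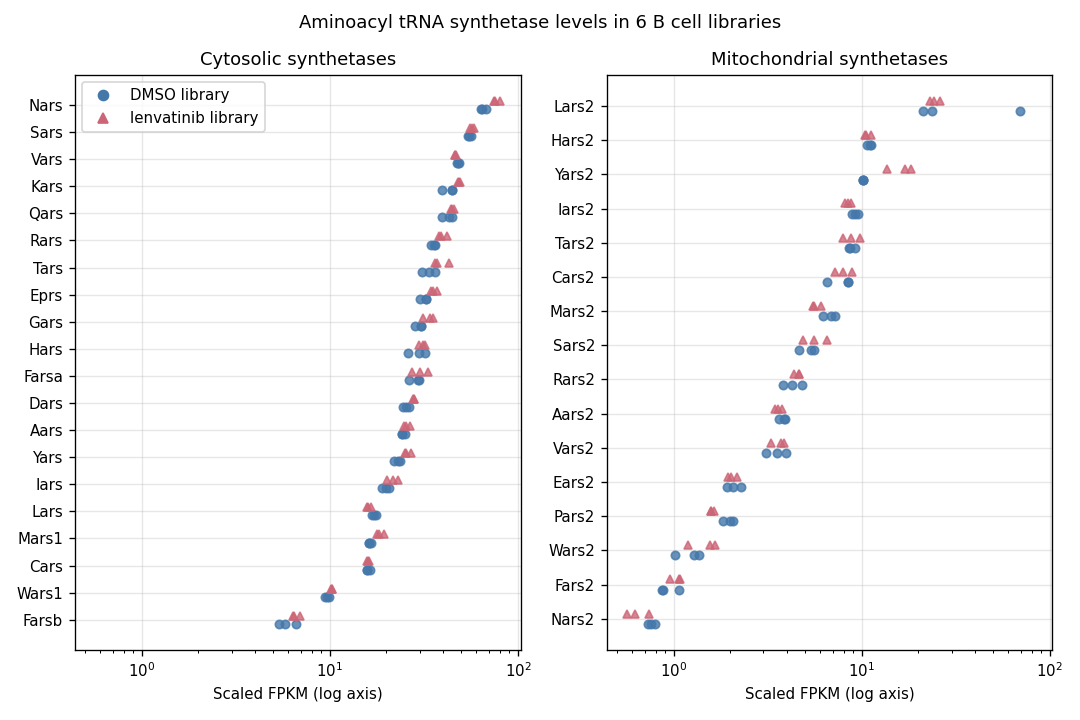
Scaled FPKM (x axis, log scale) of the synthetase genes (y axis, ordered by DMSO mean; 1 gene not reported here is left out) in each library, cytosolic on the left and mitochondrial on the right; circles are the 3 DMSO libraries and triangles the 3 lenvatinib libraries. Most genes have circles and triangles at nearly the same place; Yars2 triangles lie to the right of its circles, and 1 DMSO circle of Lars2 stands at 69.2, far from the rest.

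The mitochondrial tyrosyl enzyme gene Yars2 showed the largest rise of any synthetase. Its level was 10.1, 10.2 and 10.2 in the DMSO libraries and 13.7, 18.2 and 17 in the lenvatinib libraries. All 3 lenvatinib libraries stood above all 3 DMSO libraries, and the DMSO values were nearly equal. The means were 10.2 ± 0.0627 and 16.3 ± 2.35, a fold of 1.6, and the log2 change was 0.62 (SE 0.095, limma adjusted p = 0.00189). Between 424 and 841 reads lay behind each of these values. Its call was kept in 16 of 16 alternative settings, with log2 changes of 0.54 to 0.74 and adjusted p of 4.32e-05 to 0.016. The cytosolic tyrosyl gene Yars was at 22, 23.7 and 23 in DMSO and at 25.1, 27 and 25.3 in lenvatinib libraries. Its groups did not overlap, but its log2 change of 0.17 did not pass (limma adjusted p = 0.0606).

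The cytosolic asparaginyl enzyme gene Nars had the highest mean level per length of the family and was the second gene with a lasting call. It was at 63.3, 67.3 and 64.5 in DMSO libraries and at 75.1, 80.6 and 74.3 in lenvatinib libraries. The groups were well apart, with 65 ± 2.06 against 76.7 ± 3.46, a fold of 1.18 and a log2 difference of 0.23 (SE 0.0436, limma adjusted p = 0.00574). The call held in 16 of 16 alternatives, with adjusted p of 4.1e-05 to 0.0406. Its mitochondrial relative Nars2 had the lowest level per length of the family. It was at 0.799, 0.733 and 0.757 in DMSO and 0.563, 0.626 and 0.737 in lenvatinib libraries, and these groups overlapped. By reads Pars2 was lower, at 140 to 192 per library against 278 to 353 for Nars2.

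Kars and Eprs rose by a smaller margin. Kars, whose gene gives the lysyl enzyme of both compartments, was at 44.5, 44.5 and 39.7 in DMSO and 48.9, 48.4 and 48 in lenvatinib libraries. The lenvatinib values were close together and above each DMSO value, and the log2 estimate was 0.17 (SE 0.0515, limma adjusted p = 0.045). Eprs encodes a single protein that charges both glutamate and proline tRNA, and it was at 30, 32.3 and 32.5 in DMSO and 34.7, 37.2 and 35.2 in lenvatinib libraries. These groups did not overlap either, and the log2 change was 0.17 (SE 0.0507, limma adjusted p = 0.0457). Both calls were lost when any 1 of the 6 libraries was left out, with log2 changes that remained at 0.12 to 0.2 for Kars and 0.13 to 0.19 for Eprs. Calls over all genes also became fewer with 5 libraries. The calls were kept in 5 of 16 alternatives, with adjusted p of 0.0152 to 0.117 for Kars and 0.00139 to 0.142 for Eprs.

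**Figure D2:**
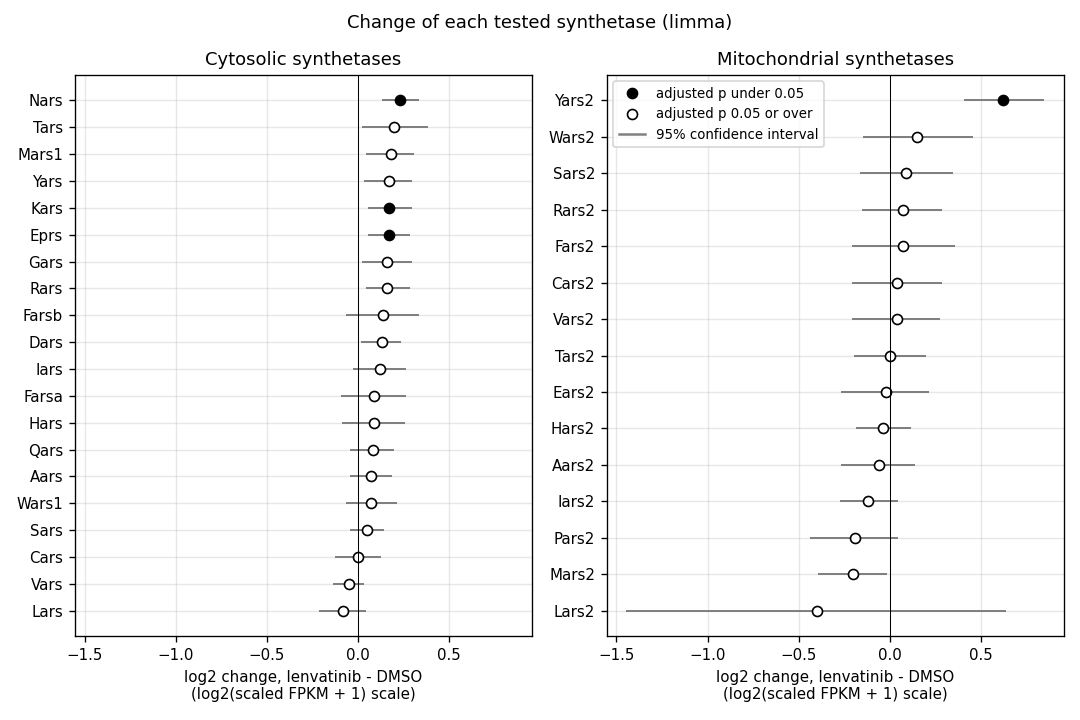
Log2 change between lenvatinib and DMSO (x axis, on the log2(scaled FPKM + 1) scale) of the tested synthetases (y axis; 1 gene not reported here is left out), with 95% confidence intervals from limma; filled circles passed an adjusted p of 0.05. Cytosolic changes lie between -0.08 and 0.23, while mitochondrial ones spread from -0.40 for Lars2, with the widest interval, to 0.62 for Yars2.

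The cytosolic and mitochondrial sets differed in their counts, as a description without a test of the difference. Of 20 cytosolic genes 3 rose (15 percent, against 10.4 percent of all tested genes) and 0 fell, 18 had a higher estimate with lenvatinib, and their median log2 change was 0.12. Of 16 tested mitochondrial genes 1 rose (6.25 percent) and 0 fell, 8 had a higher estimate, and their median was -0.01. Among all tested genes 51.5 percent had a higher estimate. At an unadjusted p under 0.05, 9 of 20 cytosolic genes were higher and 0 lower, and 1 of 16 mitochondrial genes was higher and 1 lower, against 17.6 percent higher and 14.7 percent lower over all tested genes. The sum of all cytosolic synthetase FPKM was 596, 602 and 600 in DMSO and 645, 655 and 654 in lenvatinib libraries, a ratio of means of 1.09. The libraries with the higher sum are those with the higher T cell, natural killer cell and epithelium marker levels given above. The mitochondrial sum was 102, 104 and 147 in DMSO and 108, 108 and 108 in lenvatinib libraries, a ratio of 0.923 that includes the high Lars2 value of DMSO replicate 3. Without Lars2 it was 80.6, 80.3 and 78 in DMSO and 82.4, 84.3 and 85.4 in lenvatinib libraries, a ratio of 1.06.

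Within the cytosolic set the 8 enzymes of the multisynthetase complex, Eprs, Iars, Lars, Qars, Mars1, Kars, Rars and Dars, had a median log2 change of 0.14, with 2 of 8 called higher. The 12 others had a median of 0.09, with 1 of 12 called higher, where 10.4 percent of all tested genes rose. The 2 called in the complex are Kars and Eprs, each kept in 5 of 16 alternatives. The difference between the 8 and the 12 was not tested. Rars and Mars1, the arginyl and methionyl enzymes, fell just short of the threshold. Rars was at 35.8, 36.2 and 34.3 in DMSO and 39.1, 38.2 and 42.2 in lenvatinib libraries, with no overlap (limma adjusted p = 0.0534). Mars1 was at 16.1, 16.1 and 16.6 and at 18.3, 17.7 and 19.4, again with no overlap (limma adjusted p = 0.0587). The span of the Mars1 gene overlaps that of Ddit3 in the RefSeq annotation of GRCm38.p6. Whether they share counted exons was not examined. The use of strand is not known either, so reads of any shared stretch are uncertain. The leucyl gene Lars, in the same complex, had an estimate in the other direction, from 17.1 ± 0.331 to 16.1 ± 0.49 (limma adjusted p = 0.318). Of the scaffolds, Eef1e1 passed narrowly, from 32.1, 33.2 and 25.9 to 34.4, 38.5 and 39.6 (log2 change 0.3, SE 0.0912, limma adjusted p = 0.0499). Its call was lost with a pseudocount of 0.5, as in most other alternatives. The other scaffold genes did not pass, with log2 changes of 0.2 for Aimp2 and 0.16 for Aimp1.

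The remaining genes of special function did not pass. Gars, the glycyl enzyme of both compartments, was at 30.7, 28.5 and 30.7 in DMSO and 34.1, 35.3 and 31.3 in lenvatinib libraries. Those groups did not overlap, and the log2 change was 0.16 (SE 0.0575, limma adjusted p = 0.086). Wars1, the tryptophanyl enzyme, is known for induction by interferon. It was at 9.42, 9.84 and 9.68 in DMSO and 10.3, 10.3 and 10.1 in lenvatinib libraries, a log2 change of 0.07 with a 95% confidence interval of -0.06 to 0.21 (limma adjusted p = 0.452). Among the other cytosolic genes Tars, the threonyl enzyme, had the largest estimate, from 33.6 ± 2.68 to 38.8 ± 3.7 (log2 change 0.2, limma adjusted p = 0.102). Cars, Sars and Vars, which charge cysteine, serine and valine, stayed within 0.05 of no change on the log2 scale, with 95% confidence intervals of -0.12 to 0.12, -0.04 to 0.14 and -0.13 to 0.03. The estimates were 0.07 for Aars, 0.08 for Qars, 0.09 for Farsa and for Hars, 0.12 for Iars, 0.13 for Dars and 0.14 for Farsb, the alanyl, glutaminyl, phenylalanyl alpha, histidyl, isoleucyl, aspartyl and phenylalanyl beta genes.

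Among the mitochondrial genes 3 besides Lars2 had estimates of -0.12 or lower, Mars2, Pars2 and Iars2, and none passed. Mars2, the mitochondrial methionyl enzyme, was at 6.87, 7.17 and 6.19 in DMSO and 6.05, 5.53 and 5.58 in lenvatinib libraries, with no overlap and a log2 difference of -0.2 (SE 0.0819, limma adjusted p = 0.121). Pars2, the prolyl enzyme, was at 2.07, 2 and 1.83 and at 1.57, 1.57 and 1.63, with a log2 change of -0.19 (limma adjusted p = 0.237). Iars2, the isoleucyl enzyme, was at 8.88, 9.22 and 9.56 and at 8.71, 8.43 and 8.16 (log2 change -0.12, limma adjusted p = 0.272). In all 3 the lenvatinib libraries lay below the DMSO libraries. This was so for 3 of 16 tested mitochondrial genes and for 18.2 percent of all tested genes. The 2 shares are near each other, so the count is not a result about these genes. Aars2 changed by -0.06, Hars2 by -0.04, Ears2 by -0.02, and Tars2 by 0 on the log2 scale, none of them past the threshold. The estimates were 0.04 for Cars2 and Vars2, 0.07 for Rars2 and Fars2, 0.09 for Sars2 and 0.15 for Wars2, likewise short of it. Fars2, the phenylalanyl enzyme, lay at the filter, with levels of 0.868 to 1.08 over the 6 libraries.

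The mitochondrial leucyl gene Lars2 had 1 library apart from the other 5. It was at 21.1, 23.5 and 69.2 in DMSO replicates 1, 2 and 3 and at 26.1, 24.2 and 23 in the lenvatinib libraries. The mean of the DMSO group, 37.9 ± 27.1, therefore rests on a single high value, and the log2 change of -0.4 had a 95% confidence interval of -1.44 to 0.63 (limma adjusted p = 0.58). Without DMSO replicate 3 the log2 change was 0.13. The value of 69.2 was 2.66 times the highest of the other 5 libraries, and only 1 more of the 9937 tested genes, Smpd5, reached 2 times in that library. The noncoding gene entries Gm26917 and AY036118, chosen after their values were seen, are known to collect reads of ribosomal RNA in mouse libraries. Gm26917 was at 344, 340 and 616 in DMSO and 386, 389 and 379 in lenvatinib libraries, and AY036118 was at 10.6, 10.5 and 18.4 and at 9.51, 10 and 8.51. All 3 genes were highest in DMSO replicate 3, by 1.59 times the next library for Gm26917 and 1.73 times for AY036118, and the part of such reads in the Lars2 value was not tested.

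**Figure D3:**
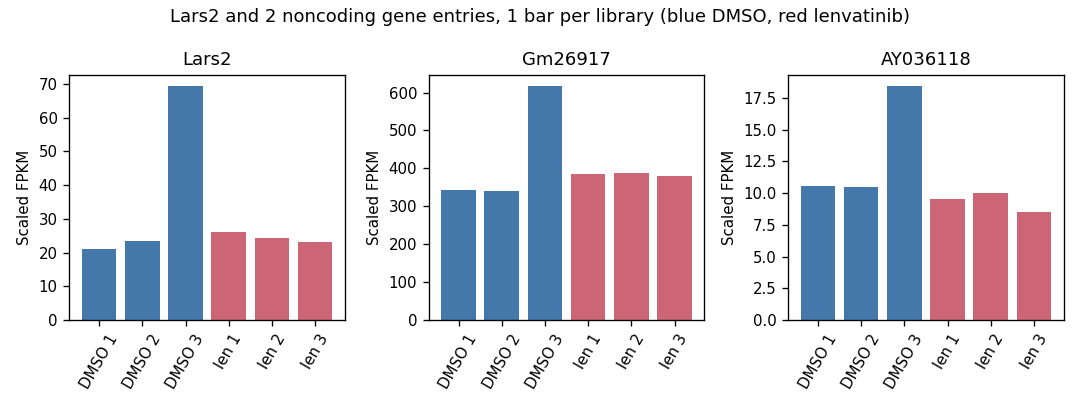
Scaled FPKM (y axis, from 0) of Lars2, Gm26917 and AY036118 in each of the 6 libraries (x axis, 1 bar per library, blue DMSO and red lenvatinib, len). In each panel DMSO replicate 3 is the highest bar, at 69.2, 616 and 18.4.

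By level per length most cytosolic genes stood above most mitochondrial ones, with Lars2, Hars2 and Yars2 above some cytosolic genes and Farsb below several mitochondrial ones. By DMSO mean Nars (65 ± 2.06), Sars (55.1 ± 1.13) and Vars (48.2 ± 0.511) were the highest and did not overlap each other. In DMSO replicate 3 alone Lars2, at 69.2, stood above all of them. Kars, at 39.7 to 44.5, and Qars, at 39.6 to 44.6, came next and could not be ordered. The lowest cytosolic genes were Wars1 (9.65 ± 0.213) and Farsb (5.92 ± 0.631), the beta subunit of an enzyme whose alpha subunit gene Farsa stood at 28.5 ± 1.9. Reads per library overlapped, at 1025 to 1406 for Farsb and 1271 to 1777 for Farsa. The gap in FPKM thus rests largely on the gene length that each was divided by. Apart from Lars2, the highest mitochondrial genes were Hars2 (11 ± 0.29) and Yars2 (10.2 ± 0.0627), and Wars2, Fars2 and Nars2 were near or below 1.22. Hars and Hars2 overlap in the RefSeq annotation of GRCm38.p6. Aars, Fars2, Farsb, Iars2, Lars2, Rars2 and Wars1 overlap other protein-coding or long noncoding genes there. Overlap was taken over whole gene spans, and shared exons were not examined, so reads of any shared stretches are uncertain.

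Set side by side for the same amino acid, the cytosolic level was above the mitochondrial one in every library for 17 of 18 pairings. The pairings span all amino acids with a separate mitochondrial enzyme, and Eprs and Fars2 each stand in more than 1. The widest ratio of DMSO means was that of Nars over Nars2, at 85.2, followed by Farsa over Fars2 at 30.4. Both ratios rest on the gene lengths used in the FPKM. Reads per library were 4354 to 6232 for Nars and 278 to 353 for Nars2. They were 1271 to 1777 for Farsa and 289 to 425 for Fars2. The narrowest among the 17 were Cars over Cars2 at 2.05, Iars over Iars2 at 2.16 and Yars over Yars2 at 2.25. For tyrosine the ratio was 2.17, 2.32 and 2.26 in DMSO libraries and 1.84, 1.48 and 1.48 in lenvatinib libraries, so the groups did not overlap. For methionine it was 2.34, 2.24 and 2.68 and then 3.02, 3.21 and 3.49, apart in the other direction. The ratios for asparagine, proline, isoleucine, glutamate and alanine were also apart in that direction, narrowly so for glutamate and alanine. The exception to the higher cytosolic level was leucine. Lars over Lars2 was 0.828, 0.717 and 0.248 in DMSO and 0.638, 0.662 and 0.681 in lenvatinib libraries. Of 17 pairings with both genes tested, the cytosolic change was the higher in 12. The 12 include leucine, where the order turned without DMSO replicate 3, at -0.09 for Lars and 0.13 for Lars2.

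**Figure D4:**
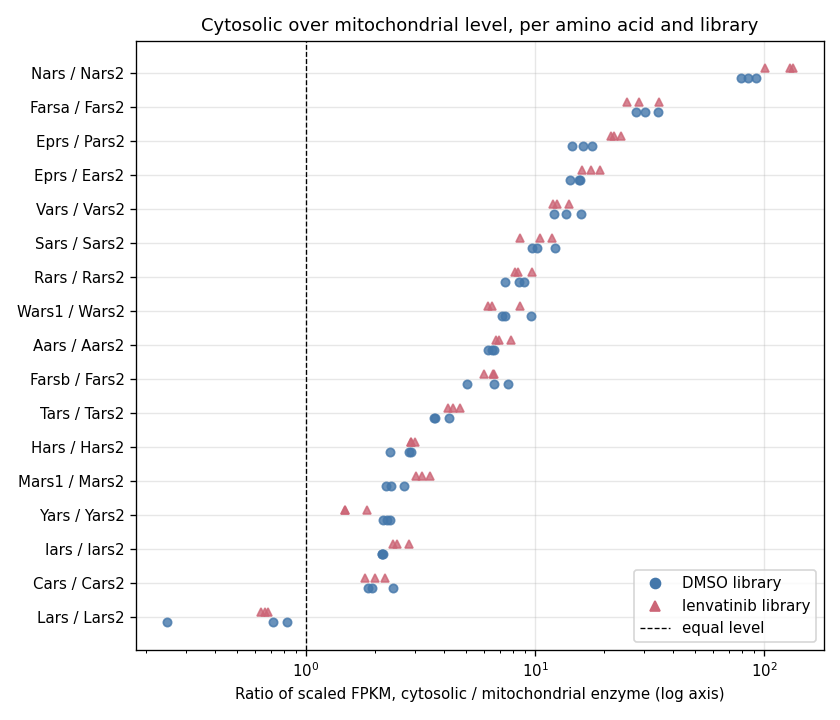
Ratio of cytosolic to mitochondrial scaled FPKM (x axis, log scale) for the pairings (y axis; 1 not reported here is left out), 1 symbol per library, circles DMSO and triangles lenvatinib; the dashed line marks equal levels. The pairings shown other than Lars / Lars2 lie to the right of the line, and the triangles of Yars / Yars2 lie left of its circles.

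Promoter sequences are shown because several cytosolic genes held a match to the element of the amino acid response in the windows at hand. RefSeq promoters on GRCm38.p6, from 250 bases before to 50 bases after each gene's start, were found for 27 of the 37 genes, 28 promoters in all. TGATGNAA, the core of the C/EBP-ATF response element bound by ATF4 and its partners, was searched on both strands. It was in 5 of 13 cytosolic promoters, those of Aars, Gars, Iars, Tars and Yars, and in 0 of 15 mitochondrial promoters, where 3.97 percent of all 32851 promoters held it. None of these 5 genes passed the test, with log2 changes of 0.07, 0.16, 0.12, 0.2 and 0.17, though Gars passed in 1 and Tars and Yars in 2 of 16 alternatives. Of the called genes, Kars, Eprs and Yars2 had promoters that were searched, with 0 matches to TGATGNAA in each. The promoter of Nars was not among those searched. CACGTG, an E-box bound by Myc, was in 4 of 13 cytosolic and 1 of 15 mitochondrial promoters against 7.15 percent of all, and it overlapped the first motif in 0 of the 28. A match is a description of letters, not of binding. The 250 bases before the start are printed for the 3 genes with a match there, on the strand of the gene and with the match in capitals, which in all 3 is the reverse complement of the motif, and for Yars2, the gene with the largest change, which has none. In Iars and Yars the match, and in Aars a second match, ended in the 50 bases after the start and is not printed.
Gars promoter, GRCm38.p6 chr6:55037751-55038000, plus strand: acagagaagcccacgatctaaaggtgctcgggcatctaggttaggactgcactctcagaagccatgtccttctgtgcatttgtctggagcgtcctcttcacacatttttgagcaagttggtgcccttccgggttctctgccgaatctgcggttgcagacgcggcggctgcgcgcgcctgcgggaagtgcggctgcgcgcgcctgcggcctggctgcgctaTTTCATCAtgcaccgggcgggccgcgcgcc
Aars promoter, GRCm38.p6 chr8:111033592-111033841, plus strand: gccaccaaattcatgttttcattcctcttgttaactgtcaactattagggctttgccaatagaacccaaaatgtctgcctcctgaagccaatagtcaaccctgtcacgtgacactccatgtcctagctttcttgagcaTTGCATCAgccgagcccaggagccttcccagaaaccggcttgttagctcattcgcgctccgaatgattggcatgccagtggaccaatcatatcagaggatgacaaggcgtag
Tars promoter, GRCm38.p6 chr15:11399659-11399908, minus strand: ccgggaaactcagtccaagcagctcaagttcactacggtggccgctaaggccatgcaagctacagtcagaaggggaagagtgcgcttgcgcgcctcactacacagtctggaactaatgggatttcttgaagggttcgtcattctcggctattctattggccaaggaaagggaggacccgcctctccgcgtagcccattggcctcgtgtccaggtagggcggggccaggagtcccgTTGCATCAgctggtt
Yars2 promoter, GRCm38.p6 chr16:16302715-16302964, plus strand: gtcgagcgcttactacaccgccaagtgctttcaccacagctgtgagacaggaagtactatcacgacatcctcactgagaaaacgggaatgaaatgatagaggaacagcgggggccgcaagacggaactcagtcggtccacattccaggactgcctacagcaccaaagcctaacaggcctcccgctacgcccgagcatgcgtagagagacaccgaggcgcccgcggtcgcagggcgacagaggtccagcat

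Genes that act beside the synthetases were counted in lists of the pathway. Of 20 other genes of tRNA charging, editing and end processing 0 rose and 0 fell by limma, and the median log2 change was 0. Over all tested genes 10.4 percent rose and 8.21 percent fell. At an unadjusted p under 0.05, 1 of the 20 was higher and 1 lower, against 17.6 percent and 14.7 percent of all tested genes. Limma-voom likewise called 0 of the 20 in either direction, against 12.7 percent higher and 12.3 percent lower over all genes. The lowest p belonged to Qrsl1, a subunit of the mitochondrial amidotransferase that makes glutaminyl tRNA, at 9.59, 9.22 and 9.03 in DMSO and 7.01, 8.62 and 7.86 in lenvatinib libraries (limma adjusted p = 0.0916). Its partner subunit Gatb was at 1.51, 1.53 and 1.3 and at 2.19, 1.61 and 2.43 (limma adjusted p = 0.122).

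In the amino acid response list 9 of 25 tested genes rose and 2 fell, with a median log2 change of 0.23. The share that rose was 36 percent, where 10.4 percent of all tested genes rose and 8.21 percent fell. Over the 16 alternatives the number of the list called higher was 6 to 12, and calls over all genes varied as well. The T cell, natural killer cell and epithelium markers were higher in the same libraries, for example 150 to 153 against 51.5 to 55.9 for the T cell sum, and their part in this list was not tested. A total of 9 further genes of the list in the table were below the filter. Atf4 itself rose from 323, 328 and 322 to 370, 378 and 378 (log2 change 0.21, SE 0.0246, limma adjusted p = 0.000444). Mthfd2, a mitochondrial folate enzyme, rose from 16.5, 16.1 and 16.6 to 22.1, 21.1 and 23.7 (limma adjusted p = 0.00103). The amino acid transporter gene Slc7a5, which carries large neutral amino acids, rose from 25.4, 25.3 and 28 to 34.5, 35.7 and 37.4 (limma adjusted p = 0.000655). The members that fell were also transporters: Slc7a1, for cationic amino acids, went from 29.6, 27.4 and 27.5 to 20.4, 21.5 and 20.3 (limma adjusted p = 0.000622), and Slc1a5, for neutral amino acids, from 76 ± 0.726 to 68.5 ± 1.41 (limma adjusted p = 0.0164). Chac1, with a DMSO mean of 0.595, passed the filter through its lenvatinib libraries, so that it could hardly have been tested without being higher there. Beside these, 4 of 36 synthetases were called higher, and the difference between the lists was not tested.

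Genes that act after charging were counted in the same way. Of 9 cytosolic elongation and release factor genes 5 rose and 0 fell, where 10.4 percent of all tested genes rose, with a median log2 change of 0.1. The count was 3 with quantile normalization or without lenvatinib replicate 1, and 1 with neither trend nor robust moderation. Eif5a, which helps ribosomes through difficult stretches, rose from 198, 192 and 201 to 254, 252 and 244 (log2 change 0.34, SE 0.0292, limma adjusted p = 5.74e-05). Eef2, the translocase, rose from 1250, 1230 and 1250 to 1390, 1420 and 1390 (limma adjusted p = 0.000744), a call lost with quantile normalization and with neither trend nor robust moderation. Of 11 mitochondrial translation factor genes 0 rose and 0 fell by limma, with 3 higher and 0 lower at an unadjusted p under 0.05. Over all tested genes the unadjusted shares were 17.6 percent higher and 14.7 percent lower. Limma-voom called 1 of the 11 higher, against 12.7 percent of all genes. Among 13 genes of eIF2, its exchange factor and its kinases 1 rose and 2 fell. Over all tested genes 10.4 percent rose and 8.21 percent fell. Eif2ak2, the kinase activated by double-stranded RNA and itself induced by interferon, fell from 11.5, 11.3 and 11.2 to 6.73, 7.15 and 6.74 (log2 change -0.65, SE 0.0647, limma adjusted p = 0.000164). Eif2ak3, the kinase of the endoplasmic reticulum stress response, fell from 107, 109 and 113 to 91.6, 94.8 and 92.2 (limma adjusted p = 0.00114). Eif2ak4, the kinase that senses uncharged tRNA, did not pass, from a mean of 7.25 to 7.01 (limma adjusted p = 0.788).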

How the data were processed

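The authors deposited FPKM values, per the labels, in 1 table with a column for each of the 6 libraries, and no column was left without a sample. Per the labels' protocols, TRIzol was used to isolate the RNA and a VAHTS kit to prepare the libraries. Reads were counted with HTSeq on GRCm39, per the submitters' processing notes. The aligner, annotation, use of strand and HTSeq version are not given in the sources used here. Each library's FPKM was divided by a median-of-ratios factor. Where 3 or more libraries reached a value of 1, log2(scaled FPKM + 1) was compared in a model of treatment alone (limma 3.58.1, R 4.3.3, trend and robust moderation, two-sided, Benjamini-Hochberg adjustment). The added 1 makes changes of genes of low FPKM look smaller. FPKM steps gave whole reads, to a tolerance of 1e-05, for 99.8 percent of genes with any value. The library sizes were inferred from the same steps, and these sizes and reads were used in limma-voom. The reads of replicates of a group differed by 6.84 to 10.2 times counting noise (mean chi-square per gene), so none were merged as 1 library. This does not show that they came from separate animals. Per-library values were to be given for each called synthetase and always for Wars1, Gars, Kars and Eprs, and from each other list for up to 4 genes of smallest p; others named with their values were chosen after these were seen. The members and lists were chosen with earlier results of these data known. The counts include 1 mitochondrial gene whose own values are not reported here. Procedures were tested on simulated data. Alternatives were pseudocounts of 0.1 and 0.5, other filters and scalings, a replicate term, no trend or robust moderation, limma-voom, and each library left out.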

Additional observations from a re-analysis of the deposited data

How the results depend on the processing

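Nars and Yars2 kept their calls in all 16 alternatives, and Kars and Eprs in 5 each. The 4 synthetases called higher became 2 with no filter on low values, scaling to the sum of FPKM, quantile normalization or neither trend nor robust moderation, and 7 with a mean of at least 5, FPKM as deposited or limma-voom. Of these the cytosolic ones, 3 at first, were 1 and 6. With 1 library left out at a time, 2 to 3 synthetases and 1 to 2 cytosolic ones were called, and the number of all tested genes called higher was 673 to 827. The median cytosolic log2 change was 0.13 with a pseudocount of 0.1, 0.1 with either sum scaling or quantile normalization, 0.14 with FPKM as deposited, and 0.1 to 0.13 with 1 library left out. With the replicate block 3 synthetases were called higher, Nars, Yars2 and Tars (limma adjusted p = 0.0347 in place of 0.102), while Kars (adjusted p = 0.055) and Eprs (0.0556) were not, and 0 of the scaffolds were. Same-numbered libraries did not deviate together (correlations of -0.0067, 0.00649 and -0.00528).

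Among the genes reported, signs turned only where no call was made, but for Eef1a1, which was called and stood at -0.0 with quantile normalization. Cars was at -0.03 with sum scaling and -0.02 with quantile normalization, Tars2 at -0.02 and -0.01 in the same order and at -0.0 with a pseudocount of 0.1 or limma-voom, and Vars2 at -0.0 with quantile normalization. With 1 library left out the log2 changes were -0.01 to 0.02 for Cars, -0.07 to 0.11 for Cars2, -0.06 to 0.02 for Ears2, -0.71 to 0.13 for Lars2, -0.0 to 0.13 for Rars2, -0.07 to 0.07 for Tars2 and -0.03 to 0.1 for Vars2.

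In the other lists, 0 scaffolds were called with a pseudocount of 0.1 or 0.5, no filter, sum scaling, quantile normalization or neither trend nor robust moderation, and 0 to 1 with 1 library left out. The amino acid response genes called lower were 1 without trend and robust moderation and 1 to 2 with 1 library left out. The elongation and release factors called higher were 3 with quantile normalization, 1 without trend and robust moderation and 3 to 5 with 1 library left out. The mitochondrial translation factors called higher were 1 with FPKM as deposited or limma-voom and 0 to 1 with 1 library left out. The cause was not tested for any of these. With 3 libraries a group, log2 estimates of 0.17 stood on both sides of the threshold (Kars and Eprs against Yars), and Pars2 rested on 140 to 192 reads a library.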
